A study of Mus musculus with 2 samples.

Results

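Fezf2 and its reported partner Chd4 were examined in single-cell RNA sequencing of sorted mouse thymic epithelial cells. They are 2 of the 32285 genes listed for these libraries and were chosen by name, not by their measured values. Cells had been released from thymi, enriched on a density gradient and sorted live for the epithelial surface protein EpCAM. One library is labelled Foxp1 KO (Cre+) and the other Foxp1 WT (Cre-). The gene named in both labels, Foxp1, encodes a forkhead transcription factor. The tissue and cell type labels are the same for both libraries, thymus and thymic epithelial cells, and the genotype entry reads KO for both, so the groups rest on the title and the library name. No source used here gives the age, sex or number of mice, which Cre line was used or what part of Foxp1 it removes. With 1 library per group there was no replicate, no test was made, and a difference between the libraries could not be told apart from a difference between the conditions.

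The thymic medulla displays proteins that otherwise belong to single organs, and developing T cells that bind them strongly are deleted or diverted. Medullary thymic epithelial cells switch on these tissue-restricted genes with the help of Aire, an autoimmune regulator protein, and of Fezf2, a zinc finger transcription factor first known from forebrain neurons. Chd4 is the ATP-dependent chromatin remodeller at the core of the NuRD complex, which also holds histone deacetylases, and in mouse medullary epithelium it has been reported to bind Fezf2 and to take part in the expression of self-antigens.

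In the submitters' build, GRCm38 (mm10), Fezf2 (ENSMUSG00000021743) lies on the minus strand at chr14:12342094-12348189. It spans 6096 bases, and its coding transcript with the most exon bases, Fezf2-203, has 4 exons and 2429 exon bases in the GENCODE M21 annotation. No annotated gene overlaps it. Chd4 (ENSMUSG00000063870) lies on the plus strand at chr6:125095981-125130591, spans 34611 bases, and its transcript Chd4-201 has 39 exons and 6697 exon bases. The small RNA genes Mir7045 and Gm23751 lie within Chd4 on the same strand, and none lies on the opposite strand.

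The sequence before each gene's RefSeq start is shown because both genes are compared across cell types below, and the letters show how CG-rich their starts are. Capitals mark CG pairs, the sites that DNA methylation uses. Both are from RefSeq on GRCm38.p6 and are written 5′ to 3′ on the gene's own strand. The Fezf2 stretch at chr14:12345960-12346115 (minus strand) lies within an intron of the longer annotated transcript Fezf2-202. It holds only the first 156 of the 250 bases before the start and stops at an annotated exon. The bases next to the Fezf2 start are therefore not printed, and 9 of the 14 CG pairs counted below are. The Chd4 stretch has all 250 bases and is at chr6:125095731-125095980 (plus strand), the first of 2 RefSeq entries.
Fezf2: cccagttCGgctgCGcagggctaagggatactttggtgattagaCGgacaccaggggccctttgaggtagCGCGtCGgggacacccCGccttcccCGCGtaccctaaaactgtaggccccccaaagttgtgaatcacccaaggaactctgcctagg
Chd4: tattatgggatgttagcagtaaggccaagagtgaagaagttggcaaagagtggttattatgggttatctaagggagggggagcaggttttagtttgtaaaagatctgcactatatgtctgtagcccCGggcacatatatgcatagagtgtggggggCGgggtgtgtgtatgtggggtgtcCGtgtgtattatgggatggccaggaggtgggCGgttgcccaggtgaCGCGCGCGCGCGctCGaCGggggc
Over the full 250 bases before the start, Fezf2 has 14 CG pairs and Chd4 has 12, against a median of 6 over 32851 mouse promoters of the same length. At least as many were found before 29.4% of promoters for Fezf2 and 33.5% for Chd4. The letters GTAAACA, a forkhead core motif, matched neither window on either strand and are found before 3.17% of promoters. The GC box GGGCGG matched the Fezf2 window once, 85 bases before the start and outside the printed stretch, and the Chd4 window at 2 places, against 32.7% of promoters with a match. Neither window held CCAAT (33.8% of promoters) or TATAAA (12.4%). These matches describe letters and not binding.

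The KO-labelled library held 4277 cell barcodes with 25233944 UMIs (unique molecular identifiers, each standing for 1 captured RNA molecule), and the WT-labelled library held 4957 with 33120715. After filters on genes, UMIs and mitochondrial RNA, 3584 and 4037 cells were kept, of which 3265 and 3883 fell into 12 epithelial clusters with median depths of 5218 and 6351 UMIs. The libraries shared 5 barcodes. Foxp1 went against the labels: over all epithelial cells it was at 405 CPM (counts scaled to 1000000 UMIs) in the KO-labelled library and at 252 CPM in the WT-labelled library, a log2 ratio of 0.68 (95% interval 0.64 to 0.73), and it was the higher in the KO-labelled library in each of the 12 epithelial clusters. Whole-gene counts cannot tell transcripts with and without a deleted exon apart, so the genotype was not checked by these counts. All ratios here are therefore between the KO-labelled library and the WT-labelled library. All intervals are exact 95% intervals that cover counting error only, not the difference between animals. Ratios compare shares of each library's RNA, so fewer molecules per cell and more of other RNA cannot be told apart.

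Fezf2 was highest in the cells that carry the markers of the Aire stage and in dividing cells, in both libraries. The Aire-stage-like cluster held 470 cells in the KO-labelled library and 731 in the WT-labelled library, and had 6 of its 7 markers: Aire, Cd80, Cd86, Cd40, Ubd and Fscn1. Fezf2 stood there at 416 CPM (399 to 433) and 536 CPM (521 to 551). In cycling cells, named by Mki67, Top2a and other division genes, it stood at 402 CPM (378 to 427) in the KO-labelled library and 555 CPM (529 to 583) in the WT-labelled library. The intervals of these clusters overlapped within each library, so neither stood above the other. The genes that define the clusters did not include Fezf2, Chd4, Aire or Foxp1.

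A pair of clusters that matched no fixed marker list came next, and they came next for Aire too. In the KO-labelled and WT-labelled libraries, Aire was at 350 and 467 CPM in cluster 4 and 224 and 331 CPM in cluster 10. Cluster 10 was led by kallikrein genes such as Klk1b26, with Ccl5 and Fabp9, and had Fezf2 at 360 CPM (310 to 416) in the KO-labelled library and 454 CPM (412 to 500) in the WT-labelled library. Cluster 4, led by 1810006J02Rik, the chemokine gene Ccl22, Anxa10 and Nos2, had 271 CPM (249 to 295) and 353 CPM (332 to 375). In the WT-labelled library each of these stood apart from its neighbours in the order. In the KO-labelled library, cluster 10 overlapped with cycling cells and cluster 4 stood apart from those on either side.

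Cells with markers of mature or peripheral-like fates had less Fezf2. Keratinocyte-like cells had 165 CPM in the KO-labelled library and 218 CPM in the WT-labelled library, and microfold-like cells, named for the antigen-sampling cells of the gut, had 148 and 152 CPM. The microfold-like cluster was mixed, with 7 of 7 microfold and 7 of 8 enterocyte and hepatocyte markers, and at a finer clustering its microfold cells had 146 CPM in the KO-labelled library and 108 CPM in the WT-labelled library, and its enterocyte-like cells 177 and 196 CPM. Neuroendocrine-like cells had 109 and 119 CPM, and the few ciliated-like cells (43 and 29) had 145 and 121 CPM. Both clusters with markers of Ccl21-producing medullary cells were low too: the Ccl21a-high cluster 2 had 107 CPM in the KO-labelled library and 139 CPM in the WT-labelled library, and cluster 0, with Krt5, Krt14 and Itga6 and less Ccl21a than cluster 2, had 86.3 and 92.0 CPM. Tuft-like cells, chemosensory cells with all 9 of their markers, were the lowest at 71.6 CPM (59.95 to 84.7) and 86.3 CPM (76.9 to 96.5). From microfold-like cells downward, each cluster overlapped with the next in the order in both libraries, although tuft-like cells lay wholly below microfold-like cells and cluster 2.

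**Figure D1:**
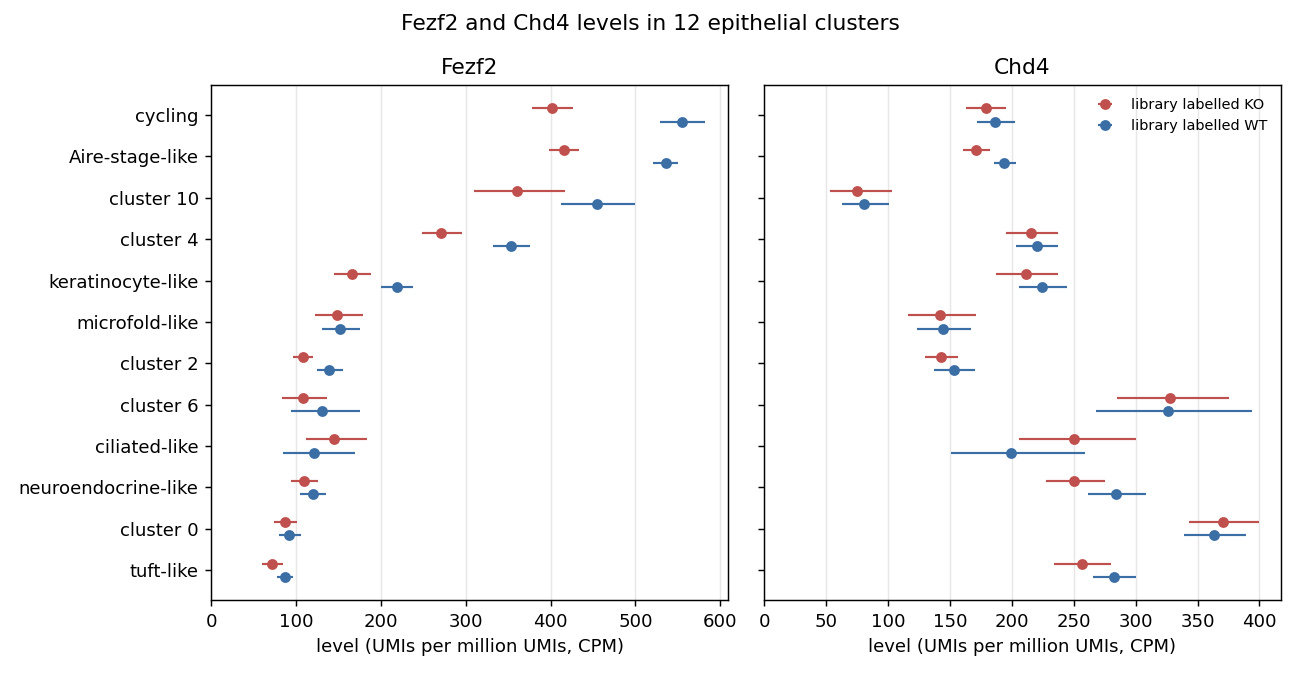
Levels of Fezf2 and Chd4 in CPM in the 12 epithelial clusters of the KO-labelled library and the WT-labelled library; points are the pooled UMIs of the cluster and bars the exact 95% Poisson intervals. Fezf2 is highest in Aire-stage-like and cycling cells (416 and 402 CPM in KO, 536 and 555 CPM in WT) and lowest in tuft-like cells, while Chd4 is highest in cluster 0 and lowest in cluster 10.

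The number of Fezf2 UMIs in a cell depends on how deeply the cell was read, so each cell was also thinned at random to 2000 UMIs. After thinning, 202 of 466 Aire-stage-like cells (43.3%, 38.8 to 48.0) in the KO-labelled library had a Fezf2 UMI, against 391 of 724 (54.0%, 50.3 to 57.7) in the WT-labelled library. Before thinning these shares were 77.7% and 86.0%. In cycling cells the thinned shares were 45.9% (100 of 218) and 59.6% (136 of 228). Fezf2 thus appeared in fewer cells of the KO-labelled library at equal depth in both of its highest clusters.

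The difference also ran through cells with several Fezf2 UMIs. Among thinned Aire-stage-like cells, those with 3 or more Fezf2 UMIs made up 7.73% in the KO-labelled library and 12.8% in the WT-labelled library, and the highest cell held 9 and 12. The mean was 0.76 UMIs per cell in the KO-labelled library and 1.05 in the WT-labelled library. In cycling cells the mean was 0.81 and 1.15, and 10.1% and 14.5% of cells held 3 or more. Cells with a single Fezf2 UMI made up 26.4% and 27.2% of Aire-stage-like cells.

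Fezf2 RNA was also looked for in cells outside the epithelium, which should lack it. In fibroblast-like cells no Fezf2 UMI was found, in 0 of 24 cells of the KO-labelled library and 0 of 12 of the WT-labelled library. With median depths of 3947 and 4351 UMIs, a count of 0 there still allows up to 12.5% and 25% of cells to hold one, taking 3 counts as the limit. Endothelial-like cells without an Epcam UMI, a division chosen after the values were seen, had Fezf2 in 11 of 142 cells (7.75%) and 10 of 50 cells, at median depths of 2410.5 and 3209.5 UMIs. Endothelial-like cells with an Epcam UMI had it in 75 of 113 (66.4%) and 33 of 46 (71.7%), at 10160 and 15104 UMIs. Tuft-like cells had Fezf2 in 18.8% of cells in the KO-labelled library and 17.9% in the WT-labelled library before thinning, at median depths of 5160 and 5498 UMIs. Pooled over all tuft-like cells, the share in the WT-labelled library was not above that of the endothelial-like cells without Epcam. In the KO-labelled library it was above, at 18.8% against 7.75%. Those endothelial-like cells also held Aire, in 14.8% of cells in the KO-labelled library and 20% in the WT-labelled library. Their Fezf2 share therefore cannot be read as a level of stray RNA. How much of the Fezf2 in tuft-like cells was stray RNA was not tested.

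Dividing the cells more finely, at a clustering resolution of 2, showed that tuft-like cells were not uniform for Fezf2. A cluster led by Sh2d6 and Alox5ap had 17.9 CPM (8.20 to 34.1) in 118 cells of the KO-labelled library and 25.6 CPM (17.0 to 37.0) in 237 cells of the WT-labelled library. A second one, led by Rgs13, Chat (choline acetyltransferase) and Plcb2, had 121 CPM (98.2 to 147) and 174 CPM (156 to 193) in 96 and 210 cells. The last, led by the taste genes Rgs21, Tas2r105 and Gnat3, lay between them at 74.0 and 81.4 CPM. The intervals of the first and second did not overlap in either library. Chd4 did not follow the same order, at 299 and 335 CPM in the first, 296 and 278 CPM in the second, and 180 and 213 CPM in the third. The cluster highest in Fezf2 at this resolution was not the same in both libraries. In the KO-labelled library it was one led by S100z, Ghrh and Klk4, at 549 CPM (516 to 584), against 632 CPM (604 to 661) in the WT-labelled library. In the WT-labelled library, leaving out a cluster with 1 cell there, it was one led by Igkc, Tmem158 and Pnldc1, with 458 CPM (425 to 494) in the KO-labelled library and 731 CPM (695 to 769) in the WT-labelled library.

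Chd4 was arranged differently over the same clusters. It was highest in cluster 0, at 370 CPM (343 to 400) in the KO-labelled library and 363 CPM (339 to 389) in the WT-labelled library, and in cluster 6, a cluster of low RNA content led by Gm42418 and Adamts18, at 328 and 326 CPM. Tuft-like cells had 256 and 283 CPM, neuroendocrine-like cells 251 and 284 CPM, and ciliated-like cells 250 and 200 CPM. Chd4 was thus most abundant, as a share of RNA, in clusters where Fezf2 was low.

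In the clusters with the most Fezf2, Chd4 was in the lower part of its range. Aire-stage-like cells had 171 CPM (160 to 182) in the KO-labelled library and 194 CPM (185 to 203) in the WT-labelled library, and cycling cells had 179 and 187 CPM. The Ccl21a-high cluster 2 (142 and 153 CPM) and microfold-like cells (142 and 144 CPM) were lower still. Cluster 10, next after those for Fezf2, was the lowest of all for Chd4, at 75.2 CPM (53.2 to 103) from 38 UMIs in the KO-labelled library and 80.2 CPM (63.1 to 101) from 75 UMIs in the WT-labelled library. Its interval lay below those of all other epithelial clusters in both libraries.

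Shares of cells at equal depth gave the same highest and lowest clusters for Chd4, but not the same order between them. In the WT-labelled library, cluster 2 (24.9%) was above Aire-stage-like cells by share, though below them in CPM. After thinning, Chd4 was found in 46.1% of cluster 0 cells in the KO-labelled library and 47.1% in the WT-labelled library. In Aire-stage-like cells the shares were 22.7% and 23.8%, and in cluster 10 they were 6.76% and 10.9%. Both genes were found in every epithelial cluster, and the shares of both varied widely between clusters. After thinning, 92.4% of tuft-like cells in the KO-labelled library and 93.7% in the WT-labelled library had no Fezf2 UMI. In cluster 10 these were 51.4% and 47.1%. Fibroblast-like cells, without Fezf2, had Chd4 at 228 and 214 CPM.

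RNA content and mitochondrial share varied along with these levels. The Chd4-rich clusters 0 and 6 had median depths of 2667 and 1706.5 UMIs in the KO-labelled library and 3126.5 and 1942 in the WT-labelled library, with median mitochondrial shares of 4.71% and 6.13% in the KO-labelled library and 4.41% and 6.04% in the WT-labelled library. The Chd4-poor cluster 10 was also shallow, at 2870 and 2129.5 UMIs, but had mitochondrial shares of only 0.895% and 0.5998%. Over all epithelial cells the medians were 2.55% and 2.45%. The part of RNA quality in the Chd4 levels was not tested.

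**Figure D2:**
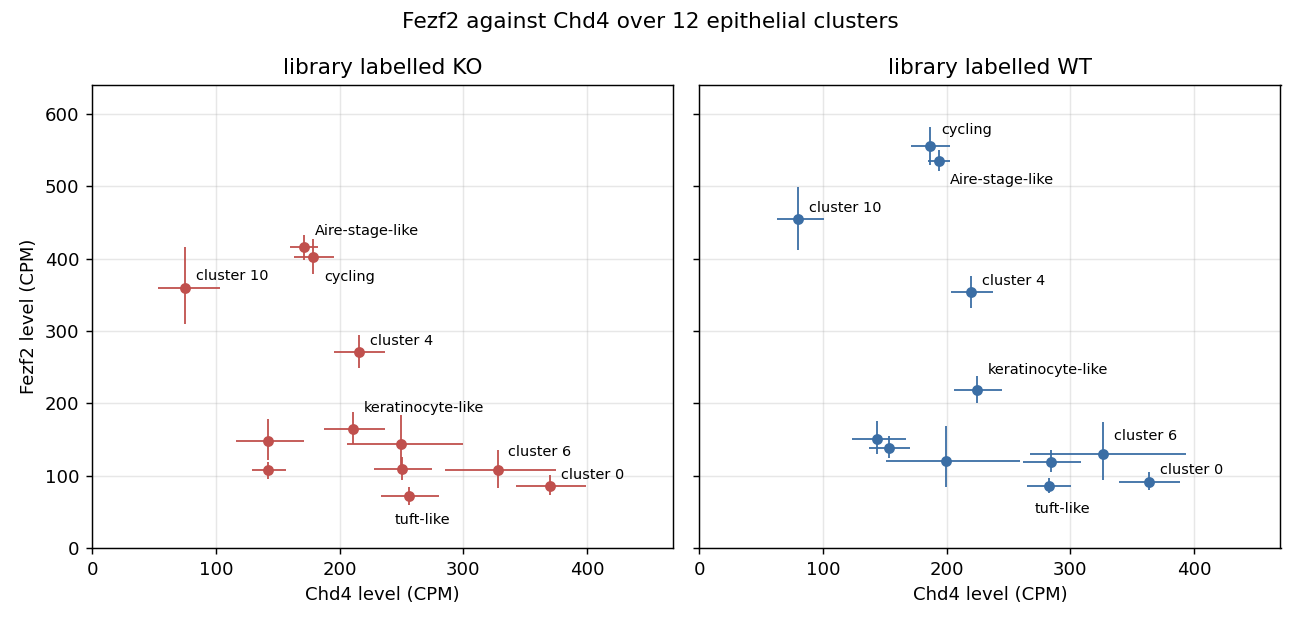
Fezf2 level (vertical axis) against Chd4 level (horizontal axis), both in CPM, with 1 point for each of the 12 epithelial clusters in the KO-labelled library and in the WT-labelled library; bars are exact 95% Poisson intervals. The 4 clusters highest in Fezf2 have at most 216 CPM of Chd4 in KO and 220 CPM in WT, while clusters low in Fezf2 range from 142 to 370 CPM of Chd4 in KO and from 144 to 363 CPM in WT.

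Over the 12 epithelial clusters, log levels of Fezf2 and Chd4 had a Pearson's r of -0.59 in the KO-labelled library and -0.55 in the WT-labelled library. These are descriptions over clusters that share a library. The genes whose arrangement was most like that of Fezf2, among 7230 with enough UMIs, were Pdlim4 (r = 0.94 in the KO-labelled library and 0.92 in the WT-labelled library), Gm49980 (0.96 and 0.91), S100a14 (0.91 and 0.94), Il4i1 (0.92 and 0.90) and Bspry (0.90 and 0.93). Aire ranked 19 (0.90 and 0.86). Foxp1 ran the other way, with r = -0.80 and -0.85 against Fezf2.

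For Chd4 the closest genes were Hectd4 (r = 0.91 in the KO-labelled library and 0.92 in the WT-labelled library), Prrc2c (0.90 and 0.90), Crebbp, which encodes a histone acetyltransferase (0.91 and 0.90), Eps15l1 (0.90 and 0.90) and Csnk1g1, a casein kinase (0.94 and 0.89). The NuRD genes were spread out. Chd3, the close relative that can replace Chd4 in the complex, had r = 0.75 and 0.74, and the subunit gene Gatad2b 0.75 and 0.68. The deacetylase gene Hdac1 (-0.39 and -0.31) and the histone-binding subunit gene Rbbp7 (-0.48 and -0.51) ran against Chd4. Hdac1 instead had r = 0.51 and 0.53 with Fezf2.

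Between the libraries, Fezf2 was lower in the KO-labelled library. Over all epithelial cells it stood at 239 CPM (233 to 246, 5351 UMIs) in the KO-labelled library and 327 CPM (321 to 334, 10052 UMIs) in the WT-labelled library, a log2 ratio of -0.45 (-0.50 to -0.40). Of 21841 genes with at least 20 UMIs, 13.2% had a ratio as low or lower, and 4.58% of the genes with at least 500 UMIs. Part of the pooled ratio goes with the mix of clusters, since the KO-labelled library had fewer Aire-stage-like and more cluster 2 and cluster 6 cells. With its clusters weighted as in the WT-labelled library, Fezf2 in the KO-labelled library was at 255 CPM and the ratio was -0.36.

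The ratio was below 0 in 11 of the 12 epithelial clusters, and its interval lay below 0 in 6: Aire-stage-like, cycling, keratinocyte-like and clusters 2, 4 and 10. Of 4654 genes with at least 20 UMIs in every cluster, 4.32% were below 0 in as many. In Aire-stage-like cells the log2 ratio was -0.37 (-0.44 to -0.29), and 19.1% of the 19059 genes measured there had one as low or lower. In cycling cells it was -0.47 (-0.58 to -0.35, with 13.1% of genes as low), but at the finer clustering it was -0.15 (-0.33 to 0.03). In microfold-like cells it was -0.03 and above 0 in 8 of 10 alternative settings, up to 0.43. It was -0.38 in cluster 4 and -0.40 in keratinocyte-like cells. It was -0.37 in cluster 2, where the sign turned to 0.25 at the finer clustering and to 0.034 after thinning, and -0.34 in cluster 10, where it turned to 0.12 when Fezf2, Chd4 and Aire were allowed among the clustering genes. The ciliated-like cells were the exception, at 0.26 with an interval (-0.36 to 0.90) that held 0.

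Chd4 differed much less. It stood at 207 CPM (201 to 213, 4628 UMIs) over all epithelial cells of the KO-labelled library and 220 CPM (215 to 226, 6766 UMIs) in the WT-labelled library, a log2 ratio of -0.09 (-0.15 to -0.04), with 39.1% of genes as low or lower. With equal weight for each cell the ratio was 0.0049. The ratio was below 0 in 9 of 12 clusters, as in at least as many for 20.7% of the genes measured in every cluster, and the interval lay below 0 in Aire-stage-like cells (-0.18, -0.30 to -0.07) and in neuroendocrine-like cells (-0.18), where it was 0.015 after thinning. In Aire-stage-like cells 31.8% of genes had a ratio as low or lower. The highest ratio was in ciliated-like cells, at 0.32 (-0.15 to 0.81).

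**Figure D3:**
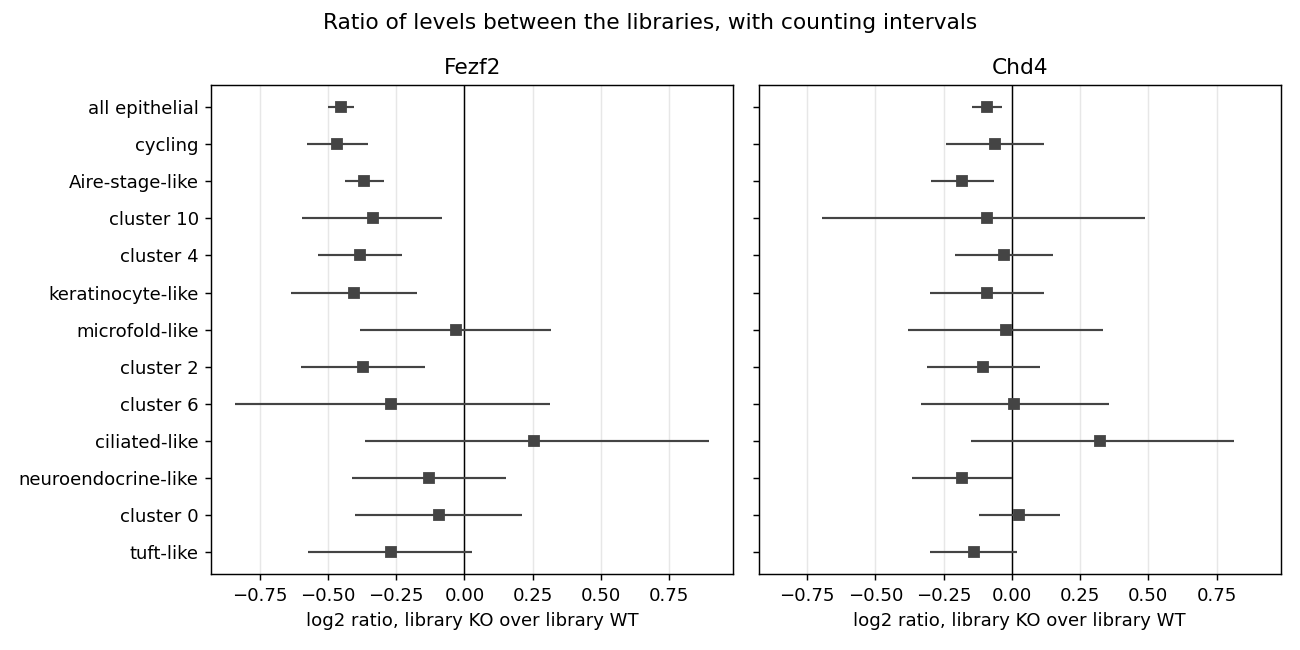
Log2 ratio of the KO-labelled library over the WT-labelled library for Fezf2 and Chd4 in all epithelial cells and in each of the 12 epithelial clusters; points are ratios of CPM, bars exact 95% intervals for counting error and the line at 0 marks equal shares. Fezf2 lies below 0 in 11 of 12 clusters (-0.45 over all epithelial cells) and Chd4 close to 0 (-0.09 over all).

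Fezf2 and Aire RNA were then compared cell by cell. Among all epithelial cells thinned to 2000 UMIs, Fezf2 was found in 18.9% (402 of 2126) of cells without an Aire UMI in the KO-labelled library and 23.0% (560 of 2433) in the WT-labelled library. With 1, 2 and 3 or more Aire UMIs the shares were 37.8%, 45.9% and 46.2% in the KO-labelled library, and 46.1%, 48.3% and 55.5% in the WT-labelled library. For CPM, cells were divided by their thinned Aire UMIs, but all of their UMIs were counted. Cells with an Aire UMI had 404 CPM of Fezf2 against 168 CPM in those without in the KO-labelled library, a log2 ratio of 1.26 (1.19 to 1.34), and 498 against 222 CPM in the WT-labelled library, a ratio of 1.17 (1.11 to 1.22). Without thinning these ratios were 1.75 and 1.77. Across the epithelium, Fezf2 and Aire thus tended to be found in the same cells.

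Inside the Aire-stage-like cluster this relation was nearly flat after thinning to 2000 UMIs. However, thinning itself made most of the group without Aire. It left 115 cells in the KO-labelled library and 181 in the WT-labelled library without an Aire UMI, where 22 and 37 had none before. Cells with an Aire UMI had Fezf2 at 420 CPM against 402 CPM in cells without in the KO-labelled library (log2 0.06, -0.08 to 0.20), and at 544 against 513 CPM in the WT-labelled library (0.08, -0.01 to 0.18). The shares of cells with Fezf2 at 0, 1, 2 and 3 or more Aire UMIs were 46 of 115, 50 of 100, 32 of 81 and 74 of 170 in the KO-labelled library and 53.6%, 55.0%, 50.7% and 55.7% in the WT-labelled library. Some other settings did not give this flatness: under a stricter cell filter the ratios were 0.33 and 0.34, without the mitochondrial filter the ratio in the WT-labelled library was 0.50, and without thinning the ratios were 1.36 and 0.71. With cells thinned to 1000 UMIs, Fezf2 was at 419 against 412 CPM in the KO-labelled library and 567 against 502 CPM in the WT-labelled library. In cycling cells the ratio was 0.34 in the KO-labelled library and 0.31 in the WT-labelled library, and in cluster 4 it was 0.45 and 0.22. Spearman's rho between Fezf2 and Aire UMIs was 0.24 and 0.28 over all epithelial cells and 0.02 and 0.01 within the Aire-stage-like cluster, as descriptions over 2775 and 3454, and over 466 and 724, thinned cells.

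The lower Fezf2 level in the KO-labelled library was seen at each Aire level of thinned Aire-stage-like cells. The log2 ratio of the KO-labelled library over the WT-labelled library was -0.35 in cells with 0 Aire UMIs, -0.33 with 1, -0.62 with 2 and -0.31 with 3 or more, each with an interval below 0. Without thinning, where few Aire-stage-like cells have so little Aire, the 21 cells of the KO-labelled library with 2 Aire UMIs had Fezf2 at 574 CPM (476 to 685), against 324 CPM (266 to 390) in the 36 cells of the WT-labelled library, the opposite direction. Over all epithelial cells these ratios were -0.40, -0.36, -0.33 and -0.26. In cycling cells they were -0.47, -0.76, -0.12 and -0.34, and the interval at 2 Aire UMIs (-0.37 to 0.13) held 0. In cluster 4 the ratio was -0.46 at 0 Aire UMIs and 0.27 (-0.19 to 0.72) at 3 or more. By thinned shares, Fezf2 was found in fewer cycling cells of the KO-labelled library at 0 and 1 Aire UMIs (37.3% against 59.6%, and 40.7% against 63.8%), but not at 2 (20 of 32 cells against 19 of 38) or at 3 or more (66.7% against 63.2%), with wide intervals.

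Over the whole epithelium, Chd4 did not have the relation to Aire that Fezf2 had. Over all epithelial cells it was slightly lower in cells with an Aire UMI, at 190 CPM against 209 CPM in those without in the KO-labelled library (log2 -0.13, -0.23 to -0.04) and 203 against 231 CPM in the WT-labelled library (-0.19, -0.26 to -0.11). Inside the Aire-stage-like cluster the libraries differed, with 183 CPM in cells with against 136 CPM in cells without an Aire UMI in the KO-labelled library (0.43, 0.19 to 0.66), and 192 against 199 CPM in the WT-labelled library (-0.05, -0.20 to 0.10). The thinned shares at rising Aire UMIs, 20.9%, 27.0%, 23.5% and 21.2% in the KO-labelled library and 26.0%, 16.9%, 27.5% and 25.5% in the WT-labelled library, had no steady direction. In cluster 4 Chd4 was higher in cells with an Aire UMI in both libraries, by log2 ratios of 0.31 and 0.36. These were of like size to those of Fezf2 in that cluster, 0.45 and 0.22.

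**Figure D4:**
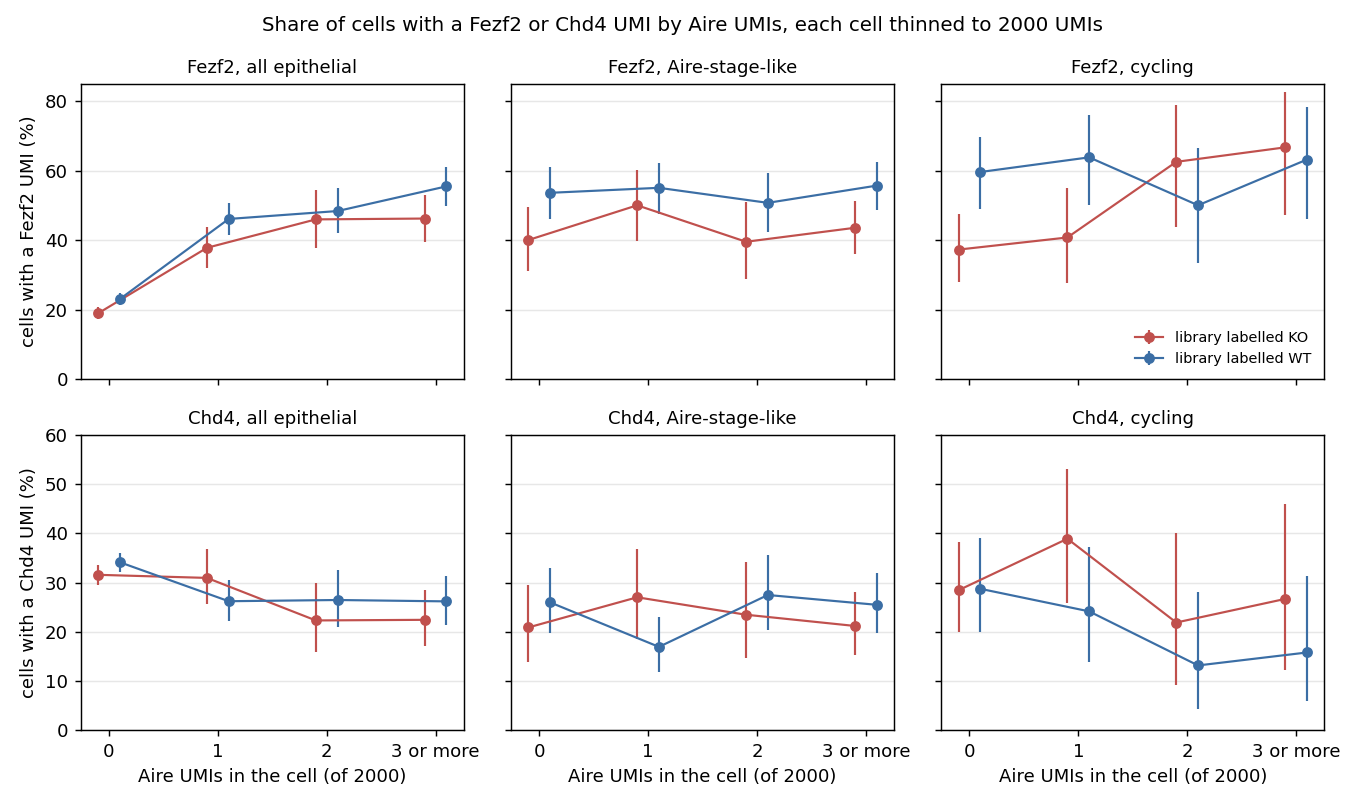
Share of cells (percent) with a Fezf2 or a Chd4 UMI at 0, 1, 2 and 3 or more Aire UMIs per cell, after thinning each cell to 2000 UMIs, in all epithelial, Aire-stage-like and cycling cells of the KO-labelled library and the WT-labelled library; bars are exact 95% binomial intervals. Without an Aire UMI, the Fezf2 share over all epithelial cells is 18.9% in KO and 23.0% in WT. At 3 or more Aire UMIs it is 46.2% and 55.5%. It is nearly level within Aire-stage-like cells, where most cells without an Aire UMI had one before thinning.

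Counting the cells by both genes, 276 of 2775 thinned epithelial cells (9.95%) in the KO-labelled library and 506 of 3454 (14.6%) in the WT-labelled library held Fezf2 and Aire together. A further 402 (14.5%) and 560 (16.2%) held Fezf2 without an Aire UMI after thinning, called Fezf2 alone here. Such cells may have held an Aire UMI before thinning. In the Aire-stage-like cluster, 46 cells in the KO-labelled library and 97 in the WT-labelled library had Fezf2 alone. Before thinning, only 11 and 21 cells with Fezf2 there lacked an Aire UMI, so thinning made most of that group. Over all epithelial cells, the numbers before thinning were 619 and 700. The cells with both were mostly Aire-stage-like (56.5% in the KO-labelled library and 58.1% in the WT-labelled library) or cycling (22.5% and 15.8%). Those with Fezf2 alone were scattered: in the KO-labelled library 19.4% were in cluster 2, 12.7% in cluster 0 and 11.4% in the Aire-stage-like cluster, and in the WT-labelled library 8.04%, 14.8% and 17.3%. Chd4 was found in 22.8% and 24.7% of the cells with both, in 26.1% and 28.2% of those with Fezf2 alone, and in 32.8% and 35.9% of cells with neither.

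The rest of the NuRD complex differed little between the libraries in Aire-stage-like cells. Of 14 subunit and paralog genes, all measured, 1 had a log2 ratio of at least 0.5 and 0 of -0.5 or less, where 13.8% and 13.5% of all genes did, and their median was -0.01, beside -0.01 for all genes. The exception was Mbd2, which encodes a methyl-CpG-binding subunit, at 31.1 CPM in the KO-labelled library and 19.5 CPM in the WT-labelled library (0.68, 0.37 to 0.99). The deacetylase gene Hdac2 was at 65.4 and 80.7 CPM (-0.30, -0.49 to -0.12), and Gatad2a, a scaffold subunit gene, at 37.7 and 46.5 CPM (-0.30, -0.55 to -0.06). Hdac1 (109 and 108 CPM), Chd3 (101 and 102 CPM) and Rbbp7 (186 and 173 CPM) had ratios of 0.01, -0.02 and 0.10. Over all epithelial cells 0 of the 14 were at 0.5 or above and 1 was at -0.5 or below, the rarely detected Chd5 (31 and 72 UMIs), where 9.49% and 11.8% of all genes were.

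Among the other members of the CHD remodeller family, Chd7 had the highest log2 ratio in Aire-stage-like cells, at 1.08 (0.85 to 1.32). It was at 62.3 CPM (340 UMIs) in the KO-labelled library and 29.4 CPM (278 UMIs) in the WT-labelled library. It was the only 1 of 8 at 0.5 or above, a share near the 13.8% of all genes. At -0.5 or below there were 0 of 8, where 13.5% of all genes were. In cluster 0 Chd7 was at 197 and 107 CPM (0.88), in cluster 2 at 62.7 and 41.9 CPM (0.58), and in cycling cells at 30.6 and 30.8 CPM (-0.01). Chd2 (257 and 326 CPM, -0.34) and Chd6 (173 and 220 CPM, -0.35) had ratios below 0 in Aire-stage-like cells. Fezf1, the paralog of Fezf2, was rare, with 6 UMIs in the Aire-stage-like cells of the KO-labelled library and 42 in those of the WT-labelled library (log2 -2.01, -3.54 to -0.77), and 58 and 140 over all epithelial cells.

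**Figure D5:**
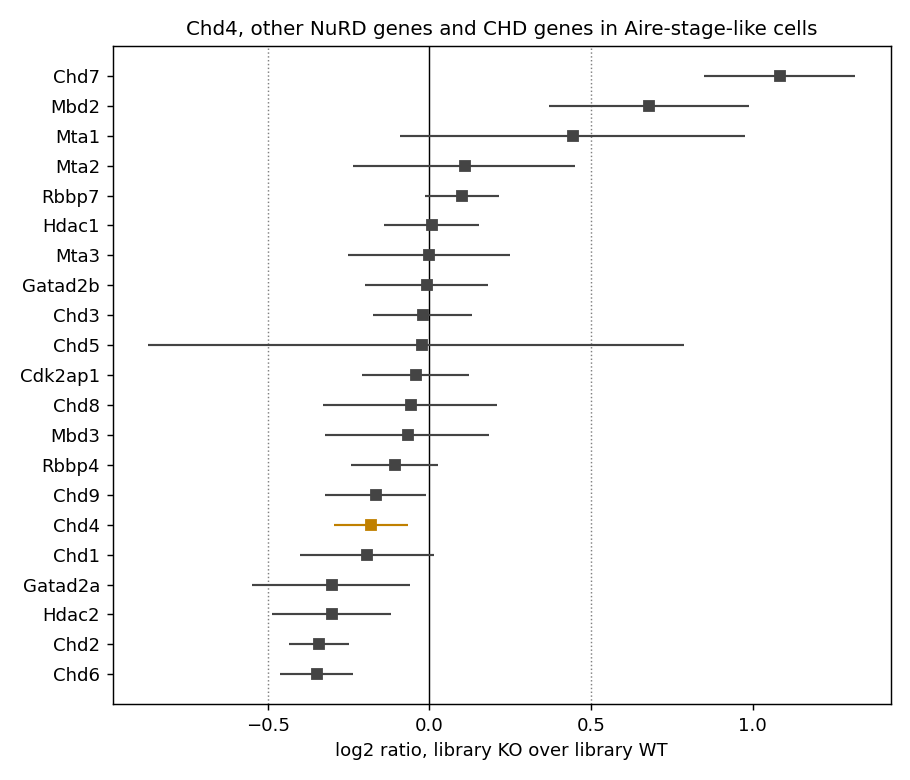
Log2 ratio of the KO-labelled library over the WT-labelled library in Aire-stage-like cells for Chd4 (coloured), the NuRD genes and the CHD family; points are ratios of CPM, bars exact 95% intervals for counting error, and dotted lines mark 0.5 and -0.5. Mbd2 (0.68) and Chd7 (1.08) are above 0.5, and Chd4 is at -0.18.

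Genes reported to depend on Fezf2 went in both directions. Of 10 listed self-antigen genes linked to Fezf2, 3 were at 0.5 or above in Aire-stage-like cells, where 13.8% of all genes were: Calb1, a calcium-binding protein gene (38.5 CPM in the KO-labelled library and 18.8 CPM in the WT-labelled library, 1.03), Ttr, the thyroid hormone carrier transthyretin (16.7 and 10.05 CPM, 0.73), and Resp18 (148 and 101 CPM, 0.55). Only Fabp9 was at -0.5 or below, where 13.5% of all genes were, at 13.2 and 53.4 CPM (-2.02). The median of the 10 was 0.24, against -0.01 for all genes, and 7 were above 0, where 51.1% of all genes were below 0. The median of the measured members was 0.82 in cycling cells, 0.71 in cluster 10, 0.51 in cluster 0, 0.29 in cluster 4 and 0.16 in cluster 2. It was -0.13 in tuft-like, -0.13 in keratinocyte-like and -0.09 in neuroendocrine-like cells. Of 9 measured genes linked to Aire, 1 was at 0.5 or above and 2 at -0.5 or below in Aire-stage-like cells, with a median of 0.02. The median of the measured Aire-linked genes was -0.35 over all epithelial cells (9 genes). It was -1.64 in tuft-like (6 genes), -0.99 in keratinocyte-like (7) and -0.87 in neuroendocrine-like cells (5). Clusters 0, 10 and 4 had medians of -1.08 (4), -0.41 (7) and -0.29 (7). It was 0.06 in cycling cells (6) and 0.28 in cluster 2 (3).

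Within each library, Aire-stage-like cells with a Fezf2 UMI were set against those without, at 2000 UMIs per cell. These groups held 202 and 264 cells in the KO-labelled library and 391 and 333 cells in the WT-labelled library. Of 3273 genes, 1.37% were at a log2 ratio of 0.5 or above in both libraries and 2.35% at -0.5 or below. The highest by the smaller of both ratios were Golga3 (1.31 in the KO-labelled library and 1.61 in the WT-labelled library), Rhd, Oxt (the hormone oxytocin), Cyp26a1 (a retinoic acid degrading enzyme), Tfcp2l1, Ooep (0.80 and 1.201), AU040320 and Psmc1. Cyp26a1 was found in 25 of the cells with Fezf2 and 13 of those without in the KO-labelled library, and in 38 and 24 in the WT-labelled library. Golga3 was less evenly spread, with 34 UMIs in 1 cell of the KO-labelled library and 49 in 1 cell of the WT-labelled library.

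The lowest were Gm47077, Sst (somatostatin), Camp, Fabp1, Ctrb1, Aunip, Gemin5 and Dab1. For several of these a single cell held most of the UMIs, as for Gm47077 with 72 of 118 UMIs in the KO-labelled library, so they describe few cells. Of the 5 Aire-linked genes measured, 4 (Csn2, S100a8, S100a9 and Pcp4) were lower in cells with Fezf2 in both libraries and 0 were higher in both, where 25.6% of all genes were lower in both. Pcp4, a Purkinje cell protein gene, was at 270 CPM in cells with and 669 CPM in cells without Fezf2 in the KO-labelled library (-1.30), and at 260 and 557 CPM in the WT-labelled library (-1.10). Nol4, 1 of the 2 Fezf2-linked genes measured here, was at 176 and 62.5 CPM in the KO-labelled library (1.48) and 123 and 94.6 CPM in the WT-labelled library (0.37). The other, Resp18, had opposite signs, at -0.37 in the KO-labelled library and 0.52 in the WT-labelled library. Aire itself was level, at -0.01 and 0.13.

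The same division by Chd4, into 106 cells with and 360 without in the KO-labelled library and 172 and 552 in the WT-labelled library, put 1.74% of genes at 0.5 or above in both libraries and 1.89% at -0.5 or below. The highest were Atp7a, Ralb (a small GTPase, 1.30 and 0.97), Cpne4, Ehmt1 (a histone methyltransferase, 1.17 and 0.89) and Pik3r3. The lowest were Defa21, Spink7, Fabp1, Prxl2c and Gm15056. Some of these describe few cells. Atp7a had 37 UMIs in 1 cell of the KO-labelled library and was in 8 cells with Chd4 there. Defa21 had 42 UMIs in 1 cell of the KO-labelled library and 38 in 1 cell of the WT-labelled library. Ralb had at most 2 UMIs in a cell in either library. Of 7 measured NuRD genes, 4 were higher in cells with Chd4 in both libraries, where 31.3% of all genes were, and 1 was lower in both. Hdac1 was at 127 CPM in cells with Chd4 and 93.1 CPM in cells without in the KO-labelled library (0.47), and at 151 and 111 CPM in the WT-labelled library (0.45). Fezf2 was at 283 and 407 CPM in the KO-labelled library (-0.51) and 497 and 531 CPM in the WT-labelled library (-0.09), so that no relation of like size was seen in both libraries.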

How the data were processed

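One library labelled Foxp1 KO and one labelled Foxp1 WT were analysed, with no replicates. The deposited matrices hold raw counts of UMIs per gene and cell barcode, written by Cell Ranger 7.0.1 per the file headers. Cell Ranger, Seurat and mm10 are named in the submitters' processing notes with no roles given. All deposited barcodes held at least 500 UMIs.

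Cells were kept that had at least 500 genes, 1000 UMIs and no more than 10% of UMIs from mitochondria (83.8% of barcodes in the KO-labelled library and 81.4% in the WT-labelled library). They were clustered together with scanpy 1.11.5 (3000 variable genes, 30 principal components, 15 neighbours, Leiden resolution 1), leaving Fezf2, Chd4, Aire, Foxp1 and sex-linked, mitochondrial, ribosomal and haemoglobin genes out. A cluster was named where at least 3 markers and 50% of a fixed list were at least 2-fold higher than in the other cells. This rule was set after the clusters were seen, so names rest on rebuilt clusters. Cluster numbers are those of the 16 clusters found, 12 of them epithelial. Scrublet called 0 doublets, which was taken as a failed call, and none were removed.

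UMIs were summed per library and cluster. CPM have exact Poisson intervals, shares exact Clopper-Pearson intervals and log2 ratios exact conditional binomial intervals (scipy 1.17.1). A gene was measured in a cluster with at least 20 UMIs over both libraries. Cells were thinned to 2000 UMIs, which left out 490 cells in the KO-labelled library and 429 in the WT-labelled library. Where cells were divided by thinned Aire UMIs, CPM and their ratios used all UMIs of these cells. In the division by Fezf2 or Chd4, genes needed at least 50 UMIs in each library, and 0.5 UMIs were added to each count. Likeness used log2(CPM + 1) of genes with at least 500 UMIs in each library. The genes named are Fezf2, Chd4, the members of the fixed lists, the 5 nearest in likeness for each, and the 8 (Fezf2) or 5 (Chd4) highest and lowest in the divisions. Fezf2, Chd4 and the lists were chosen with earlier results of these data known. The calculation of ratio intervals was checked on Poisson counts drawn per gene from the pooled Aire-stage-like profile, with 200 of 5120 genes changed. For the changed genes, 98% of intervals held the true value. The draw had the counting error that the intervals assume and no variation between cells. It therefore checked the calculation only, not how well the intervals cover real cells. Alternatives covered the cell filter, resolution, clustering genes, weighting, scaling, doublet scores, thinning and count minimum.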

Additional observations from a re-analysis of the deposited data

How the results depend on the processing

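No paired analysis was possible because each group has 1 library. In all, 308 values were recomputed. Of those for the main comparisons, 91 stayed within their limits (the counting interval, for a ratio) and 22 moved further. A further 1 turned the sign of a ratio whose interval had excluded 0. Of the rest of the 308, 166 stayed within their limits, 24 moved further and 4 turned such a sign. Values near 0 crossed it as well: Chd4 in cycling cells was at 0.015 with equal weight per cell, and the NuRD median at 0.010 under the stricter filter. The log2 ratio of Fezf2 between the KO-labelled library and the WT-labelled library stayed below 0 in all epithelial cells (-0.53 to -0.36 in 11 alternatives), in Aire-stage-like cells (-0.46 to -0.33 in 10) and in cycling cells (-0.51 to -0.15 in 10). For Chd4 in Aire-stage-like cells it stayed between -0.20 and -0.10. The alternatives with cluster weights as in the WT-labelled library and with ratios after thinning were chosen after seeing the data.

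With equal weight per cell, Fezf2 was at -0.53 in all epithelial and -0.45 in Aire-stage-like cells, and Chd4 in all epithelial cells turned to 0.0049. With clusters weighted as in the WT-labelled library, Fezf2 was at -0.36. After thinning to 2000 UMIs, Fezf2 was at -0.46 in Aire-stage-like cells and turned to 0.034 in cluster 2, and Chd4 was at 0.17 in cycling and turned to 0.015 in neuroendocrine-like cells. In cycling cells, Fezf2 was at -0.15 at resolution 2, and at -0.25 both at resolution 0.5 and under the stricter filter, and Chd4 was at -0.25 without the highest doublet scores. Fezf2 turned to 0.25 in cluster 2 at resolution 2, and to 0.12 in cluster 10 with Fezf2, Chd4 and Aire among the clustering genes. For cells with over cells without an Aire UMI, Fezf2 in all epithelial cells was at 1.001 in the KO-labelled library and 1.03 in the WT-labelled library at 1000 UMIs, at 1.75 and 1.77 without thinning, and at 1.29 in the WT-labelled library without the mitochondrial filter. In Aire-stage-like cells it was at 1.36 and 0.71 without thinning, 0.33 and 0.34 under the stricter filter, and 0.50 in the WT-labelled library without the mitochondrial filter. Chd4 was at -0.24 without thinning and -0.26 without the mitochondrial filter in all epithelial cells of the KO-labelled library, and at 0.29 without thinning in Aire-stage-like cells of the WT-labelled library. The causes were not tested. The NuRD counts and median did not move beyond their limits under 4 alternatives. Depth limits the rare clusters: ratios in ciliated-like cells rest on 66 and 34 Fezf2 UMIs.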

Other observations

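At resolution 2, a small cluster with the cortical epithelial markers Prss16, Psmb11 and Ctsl held 29 cells in the KO-labelled library and 1 in the WT-labelled library. Fezf2 was at 79.4 CPM (42.3 to 136) in its cells from the KO-labelled library. The endothelial-like cells separated there into a cluster of 167 and 53 cells with Fezf2 at 27.0 CPM in the KO-labelled library and 83.3 CPM in the WT-labelled library, and a cluster of 93 and 46 cells at 399 and 380 CPM. Chd4 in endothelial-like cells as a whole was at 175 and 153 CPM, and in thymocyte-like cells at 287 and 246 CPM. Thymocyte-like cells without an Epcam UMI had Fezf2 in 0 of 18 cells in the KO-labelled library, which allows a share of up to 16.7%, and in 1 of 26 in the WT-labelled library. With an Epcam UMI it was found in 6 of 12 and 8 of 13.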
